A study of Mus musculus with 9 samples.

Results

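The genes followed here are 7 enzymes of heme synthesis, the mitochondrial glycine carrier Slc25a38 and the transferrin receptor Tfrc, 9 genes of the 37980 listed. They were chosen by name and found through their Ensembl identifiers. RNA was sequenced from myeloid progenitors (MPs, Lin-ckit+Sca1-), with 100000 cells sorted as a sample from the bone marrow of irradiated adult C57BL/6 mice that had received transplanted multipotent progenitors (MPPs) together with helper bone marrow. The 4 NA MP samples were Tdtomato+ cells from recipients of NA MPPs, which carry the Nup98-Hoxa10hd fusion gene (NA) at the Rosa26 locus behind a stop cassette (NA LSL/+) that Vav-Cre, active across blood cells, removes. The 5 WT MP samples were sorted as CD45.2+ from mice given WT MPPs, and the labels place both sorts at 3 months post-transplantation, while the study's methods name a later month. The recipients and the NA donors were themselves CD45.2+, and elsewhere the study traces WT donor cells by another form of CD45. If that held here, a CD45.2+ sort would hold helper or host cells rather than transplanted ones. The sources do not settle this, so the origin of the WT MPs (transplanted, helper or host cells) is not known. The labels also do not say whether a sample came from a single mouse. The p-values below therefore measure the spread between these samples, whatever its source.

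The deposited values are estimated read counts divided by a factor for each sample, and are called normalised read counts here. The steps between low values showed a depth of 5557718 (NA MP 1) to 8106142 (NA MP 4) reads per sample, if a step is 1 read. The partners of the fusion checked the labels. Normalised read counts of Hoxa10 were 129 ± 17.7 (SD, n = 4) in NA MPs, beside 8.05 ± 2.57 in WT MPs (SD, n = 5), and Nup98 had 956 ± 81.8 and 599 ± 29.9. The table has no row of its own for the fusion, so its reads and theirs were not separated. NA MP 1 stood apart from the other NA MP samples on the second principal component, which held 6.12% of the variance of log2 values, against 65.8% for the first, which separated the groups. Against 17.3% of all genes tested that were lower in NA MPs and 16.9% that were higher, B lineage genes were higher for 8 of 8 genes tested, 7 of 9 macrophage genes were higher and 1 lower, 4 of 5 mast and basophil genes and 6 of 10 neutrophil genes were higher with none lower, 9 of 15 proliferation genes were lower with none higher, and 3 of 7 megakaryocyte genes were lower and 1 higher. Kit and Ly6a, the genes of the sort markers ckit and Sca1, did not pass the test. Cd34 and Fcgr3, surface marker genes of progenitors that this sort did not use, were higher and lower. The T lineage genes had too few reads for a test. In bulk samples such as these, fewer cells of a type and less RNA per cell cannot be told apart, and what share these markers have in the results below was not tested.

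Heme is made from glycine and succinyl-CoA by a chain of enzymes that begins and ends in mitochondria, with the middle steps in the cytosol. Alas2 is the erythroid form of the first enzyme and Alas1 the form found in most cells, and the last enzyme, Fech, places ferrous iron in the porphyrin ring. Immature red cells take up that iron from transferrin through Tfrc. Iron regulatory proteins read the iron supply by binding hairpins in mRNA called iron-responsive elements: when iron is scarce, a bound hairpin near the start of an mRNA slows its translation, and bound hairpins after the coding region of Tfrc protect its mRNA. Myeloid progenitors include the precursors of both the erythroid and the granulocyte and macrophage lineages.

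The elements are printed because they join the first enzyme of the pathway to the iron receptor. A search of GENCODE M21 transcripts (GRCm38) for 27 bases with a CAGTGN loop, 5 paired bases on each side, a bulged C and at least 4 of 5 pairs below the bulge found 1 element in the 5′ UTR of Alas2 (chrX:150547459-150547485, plus strand) and 4 in the 3′ UTR of Tfrc (chr16:32631220-32631246, plus strand, to chr16:32631711-32631737). It also found 1 each in the 5′ UTR of Fth1 (chr19:9982733-9982759, plus strand), Ftl1 (chr7:45459780-45459806, minus strand) and Slc40a1 (chr1:45925466-45925492, minus strand), which encode the ferritin subunits and the iron exporter. Capitals mark the bulged C and the loop.
Alas2: tggttCgtcctCAGTGCagggcaacag
Fth1: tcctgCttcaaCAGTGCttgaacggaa
Ftl1: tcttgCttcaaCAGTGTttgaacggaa
Slc40a1: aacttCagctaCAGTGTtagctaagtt
Tfrc element 1: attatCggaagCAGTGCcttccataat
Tfrc element 2: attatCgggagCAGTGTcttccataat
Tfrc element 3: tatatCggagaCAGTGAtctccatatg
Tfrc element 4: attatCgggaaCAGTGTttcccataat
Such a match was found in 6 of 20444 genes with a 5′ UTR (0.0293%), 11 of 21031 with a 3′ UTR (0.0523%) and 12 of 22527 with a coding sequence. A match is a description of letters and was not tested for binding.

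RefSeq promoter sequences (GRCm38.p6) were used for 8 of the 9 genes, all but Fech. The 250 bases before a start are shown for the 3 starts that held a GATA word (GATA after A or T and before A or G, on either strand), the letters that erythroid GATA factors read: Alas2 (chrX:150547167-150547416, plus strand), Cpox (chr16:58669958-58670207, plus strand) and the downstream of the annotated starts of Uros (chr7:133702501-133702750, minus strand). Capitals mark GATA words, CACCC boxes (CCNCNCCC) and GC boxes (GGGCGG), which overlap one another in the Alas2 sequence.
Alas2: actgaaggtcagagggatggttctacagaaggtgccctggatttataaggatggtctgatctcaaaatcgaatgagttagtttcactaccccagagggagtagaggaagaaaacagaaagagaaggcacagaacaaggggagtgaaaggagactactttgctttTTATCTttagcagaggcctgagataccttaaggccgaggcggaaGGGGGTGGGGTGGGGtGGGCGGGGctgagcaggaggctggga
Cpox: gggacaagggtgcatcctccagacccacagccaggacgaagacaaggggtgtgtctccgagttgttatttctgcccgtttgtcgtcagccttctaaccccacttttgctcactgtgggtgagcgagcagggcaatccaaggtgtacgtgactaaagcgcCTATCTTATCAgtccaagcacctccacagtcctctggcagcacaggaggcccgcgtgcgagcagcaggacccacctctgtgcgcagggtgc
Uros, downstream start: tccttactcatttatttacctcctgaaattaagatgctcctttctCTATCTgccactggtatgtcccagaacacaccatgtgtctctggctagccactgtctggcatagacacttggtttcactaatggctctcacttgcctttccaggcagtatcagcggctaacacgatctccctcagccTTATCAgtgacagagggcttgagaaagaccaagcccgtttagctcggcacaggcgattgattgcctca
Alas2 held 1 GATA word, 86 bases before its start. Cpox held 2 that share 1 base, beginning 91 and 86 bases before its start, and the downstream start of Uros held 2, at 205 and 68 bases. Of 32851 promoters searched, 26.5% held a GATA word, 45.9% a CACCC box and 32.7% a GC box. Alad, Urod, Ppox, Slc25a38 and Tfrc held no GATA word in this window, nor did the upstream start of Uros. CACCC boxes were also found at starts that are not shown, those of Alad, Slc25a38 and Tfrc and the upstream start of Uros. The same holds for GC boxes at starts of Alad, Urod and Tfrc and the upstream start of Uros.

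Of the 9 genes, 8 had enough reads for a test, and 6 of these 8 were lower in NA MPs (Alad, Uros, Urod, Cpox, Fech and Tfrc), none higher, and 2 did not pass (Ppox and Slc25a38). Among all 11987 genes tested, 17.3% were lower in NA MPs and 16.9% higher, 34.3% in all, at an adjusted p under 0.05 (limma on log2 values, Benjamini-Hochberg adjustment). In each of the 6, all 4 NA MPs lay below all 5 WT MPs, as did 12.8% of all genes tested, while 13.5% had all NA MPs above. The median log2 fold change of the 8 was -0.35, beside -0.0081 over all genes tested and -0.23 over those called lower. In the same samples the erythroid genes were lower for 15 of 16 tested, with a summed level of 5562 to 7192 normalised read counts in NA MPs and 10554 to 11995 in WT MPs. The part of the erythroid genes in the fall of these 6 was not tested.

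**Figure D1:**
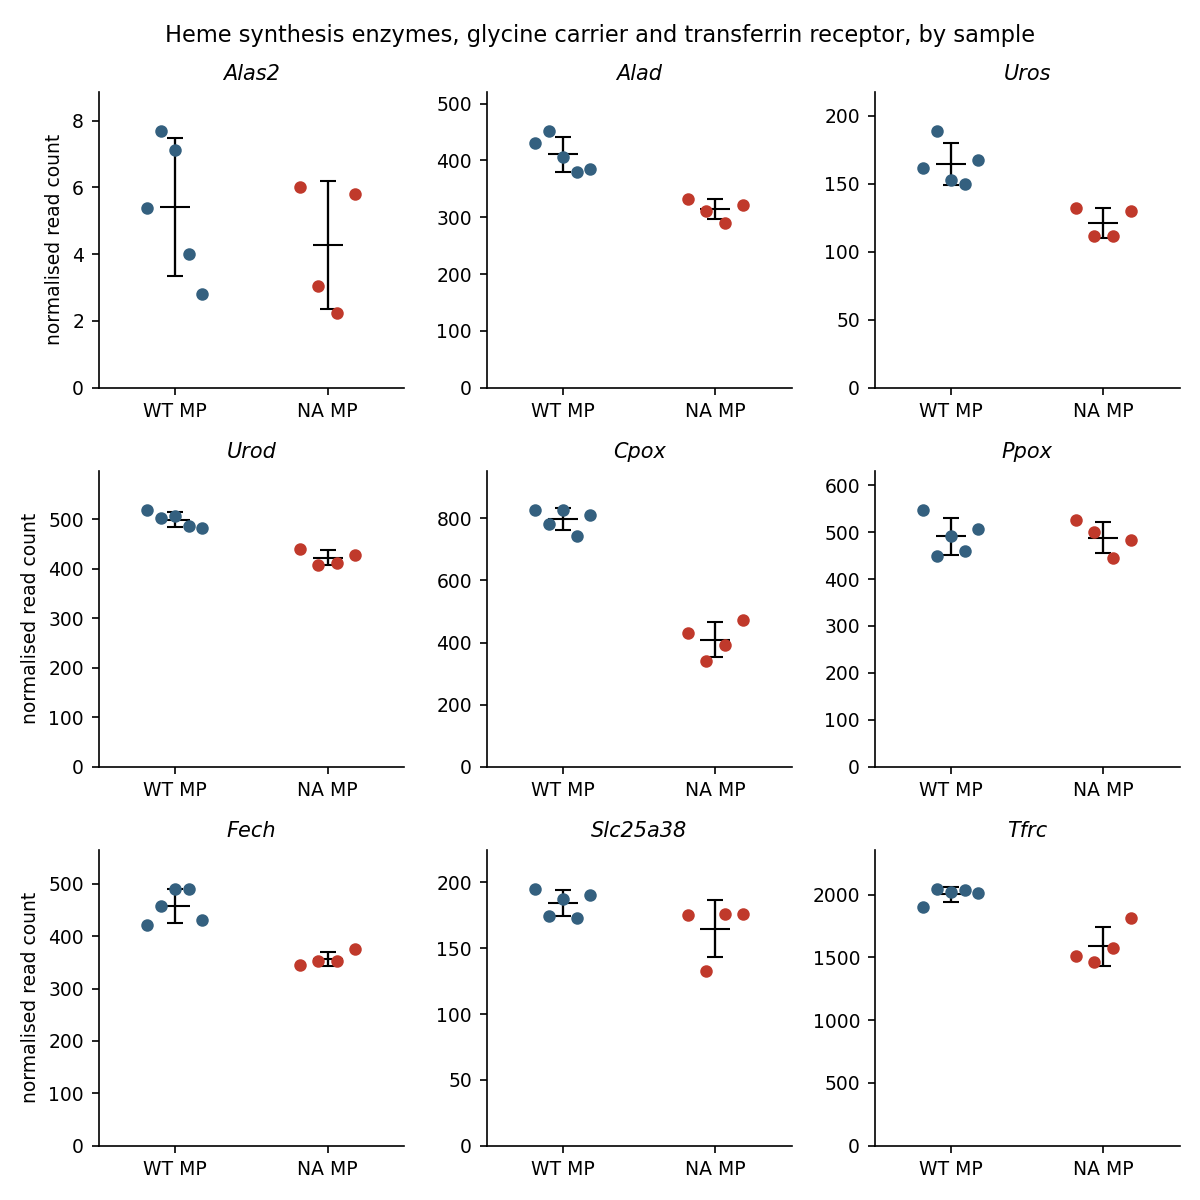
Normalised read count (linear axes from 0) of each of the 9 genes in the 5 WT MP and 4 NA MP samples, in pathway order, with 1 point a sample; the horizontal mark is the mean and the bars are 1 SD. The NA MP points lie below all WT MP points for Alad, Uros, Urod, Cpox, Fech and Tfrc, and overlap them for Alas2, Ppox and Slc25a38.

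Alas2 (ENSMUSG00000025270, chrX:150547375-150570638) makes aminolevulinic acid in red cell precursors, and it was close to the limit of detection. Its normalised read count was 6, 3.03, 2.23 and 5.79 in NA MPs 1 to 4 and 5.40, 7.70, 7.13, 4 and 2.80 in WT MPs 1 to 5. These come from 2 to 9 reads a sample, and the groups overlapped. Summed over samples, NA MPs held 17 reads (0.646 per 1000000 reads, 95% exact Poisson interval 0.376 to 1.03) and WT MPs 28 (0.821 per 1000000, 0.545 to 1.19). The ratio of NA to WT was 0.787, with an exact interval of 0.404 to 1.49 that covers counting error only, so a difference was not detectable at this depth. Exons of Alas2 overlap those of Apex2 and Mir3620 on the opposite strand, and whether reads were counted by strand is not given in the sources used here. Apex2 had 79.6 ± 6.33 (SD, n = 4) and 75.4 ± 8.99 (SD, n = 5) normalised read counts.

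Alas1, which performs the same step in most cells and is not one of the 9, had values that overlapped between the groups. Its normalised read count was 3629, 3756, 3699.8 and 3550.1 in NA MPs and 3889, 3799, 3937, 3587 and 3786 in WT MPs. The log2 fold change was -0.054 (SE 0.028, 95% interval -0.110 to 0.0022, adjusted p = 0.135 from limma). It passed, at -0.071, with offsets for GC content and length (adjusted p = 0.0210) and, at -0.075, without WT MP 4 (adjusted p = 0.0449). The log2 ratio of Alas2 to Alas1 was -9.24 ± 0.488 over the NA MPs (SD, n = 4) and -9.05 ± 0.400 over the WT MPs (SD, n = 5), which an exact permutation test did not separate (two-sided, p = 0.540, where 4 against 5 samples can reach 0.0159).

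Alad (ENSMUSG00000028393, chr4:62509169-62519918) joins a pair of aminolevulinic acid molecules into the first pyrrole. Its normalised read count was 333, 311, 291 and 322 in NA MPs and 431, 453, 406, 379 and 386 in WT MPs. The highest NA MP lay below the lowest WT MP. The mean fell by 23.4% on the fitted scale, a log2 fold change of -0.38 (SE 0.058, adjusted p = 8.91e-07 from limma).

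Uros (ENSMUSG00000030979, chr7:133686243-133710072) closes the tetrapyrrole ring as uroporphyrinogen III. It had 132, 111, 111 and 129.8 normalised read counts in NA MPs and 162, 189, 153, 150.1 and 168 in WT MPs. NA MPs 1 and 4 were above NA MPs 2 and 3, and all 4 were below the WT MPs. This was a log2 fold change of -0.44 (SE 0.087, adjusted p = 8.29e-05 from limma). The reads do not show which of the starts of Uros was used.

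Urod (ENSMUSG00000028684, chr4:116989965-116994413) removes carboxyl groups from the ring, the last step in the cytosol before coproporphyrinogen returns to mitochondria. Its normalised read count was 439, 407, 411 and 428 in NA MPs and 519, 502, 506, 485 and 482 in WT MPs. Urod had the smallest fall of the 6, a log2 fold change of -0.24 (SE 0.049, adjusted p = 9.69e-05 from limma), and the groups did not overlap.

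Cpox (ENSMUSG00000022742, chr16:58670292-58717636) oxidises coproporphyrinogen in the mitochondrial intermembrane space, and its level in NA MPs was close to 50% of that in WT MPs. Its normalised read count was 432, 342, 393 and 471 in NA MPs and 826, 783, 828, 743 and 812 in WT MPs. The gap between the highest NA MP and the lowest WT MP was wider than the range of either group. Cpox fell by 49.0%, a log2 fold change of -0.97 (SE 0.075, adjusted p = 1.31e-07 from limma). Gpr15, which overlaps Cpox exons on the opposite strand, had 4 to 10.1 normalised read counts in the 9 samples.

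Ppox (ENSMUSG00000062729, chr1:171275990-171281186) is the enzyme after Cpox and forms protoporphyrin. It had 526, 499, 445 and 484 normalised read counts in NA MPs and 548, 449, 492, 460.3 and 507 in WT MPs, so the groups overlapped. The log2 fold change was -0.0072, with a 95% interval of -0.118 to 0.104 (adjusted p = 0.939 from limma). The sign of this value turned in some of the alternative settings. Exons of Ppox overlap those of B4galt3 on the opposite strand, which had 175 ± 9.99 (SD, n = 4) and 168 ± 15.0 (SD, n = 5) normalised read counts.

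Fech (ENSMUSG00000024588, chr18:64452914-64490251), the last enzyme, had 346, 352, 353 and 376 normalised read counts in NA MPs and 421, 457, 491, 490.3 and 431 in WT MPs. The NA MPs varied less among themselves than the WT MPs and lay below all of them. Fech had a log2 fold change of -0.36 (SE 0.055, adjusted p = 9.82e-07 from limma).

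**Figure D2:**
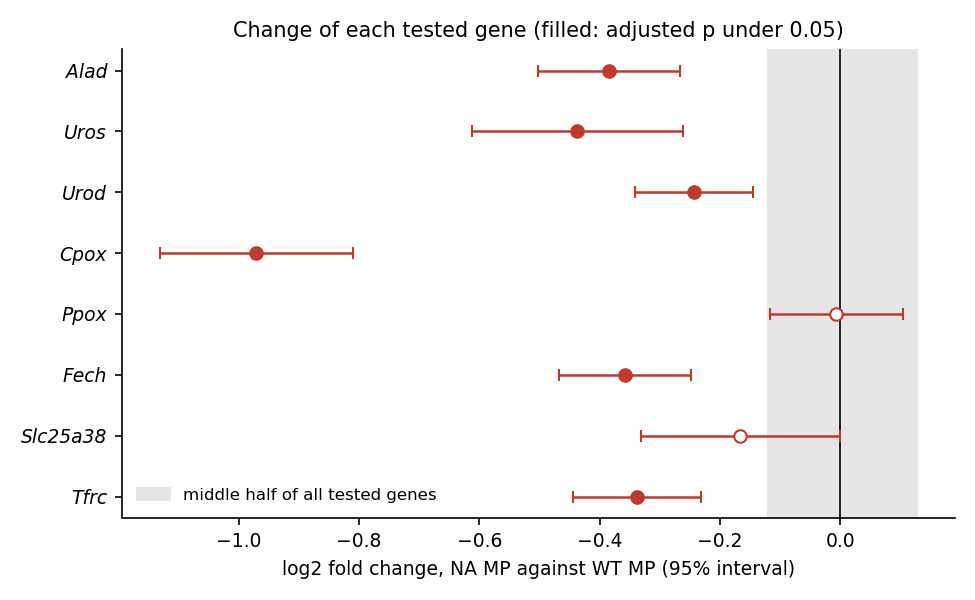
Log2 fold change of NA MPs against WT MPs for the 8 genes tested, in pathway order with the carrier and the receptor last; points are estimates, bars 95% intervals from limma, filled points had an adjusted p under 0.05, and the grey band spans the quartiles of all 11987 genes tested (-0.120 to 0.127). Cpox lies farthest from 0 at -0.97, and Ppox at -0.0072 and Slc25a38 at -0.17 are the open points.

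Slc25a38 (ENSMUSG00000032519, chr9:120110374-120124504) brings glycine into mitochondria for the first step. It had 175, 132, 176 and 176 normalised read counts in NA MPs and 195, 175, 187, 173 and 190.1 in WT MPs. NA MP 2 was apart from the other 3, which lay within the range of the WT MPs. The log2 fold change was -0.17 (SE 0.082, 95% interval -0.332 to -0.0012) with an adjusted p of 0.115 from limma. With offsets for GC content and length it was -0.23 and passed (adjusted p = 0.0243 from limma), and without NA MP 2 it was -0.065 (adjusted p = 0.583).

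Tfrc (ENSMUSG00000022797, chr16:32608920-32632794) had the most reads of the 9 genes, 1510.2, 1461, 1579 and 1811 normalised read counts in NA MPs and 1903, 2049, 2023, 2035 and 2013 in WT MPs. NA MP 4 and WT MP 1 came closest to the other group and did not reach it. Tfrc fell by 20.9%, a log2 fold change of -0.34 (SE 0.050, adjusted p = 5.79e-05 from limma).

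The falls were compared with each other in 28 pairs of the 8 genes, as the difference between groups in the log2 ratio of a pair within each sample (exact two-sided permutation tests over all splits of 4 against 5, adjusted over the 28 pairs). Cpox differed from all 7 others, by 0.53 (Uros) to 0.96 (Ppox) on the log2 scale, each with an adjusted p of 0.0404, which comes from the smallest p the permutation test allows. Ppox differed from Alad, Uros, Urod and Cpox (adjusted p = 0.0404 each, exact permutation test). The pairs of Ppox with Tfrc and with Fech did not pass (adjusted p = 0.0889 each, exact permutation test). Alad fell by more than Urod, with a difference of -0.14 (adjusted p = 0.0404, exact permutation test). In all, 11 of the 28 pairs had an adjusted p under 0.05. Among the other pairs were Fech and Tfrc, whose log2 fold changes of -0.36 and -0.34 differed by -0.020 (adjusted p = 0.774, exact permutation test), and Alad and Fech, which differed by -0.027 (adjusted p = 0.778).

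Among the NA MPs, NA MP 2 was the lowest sample for 5 of the 8 tested genes, NA MP 3 for 2 and NA MP 1 for 1, while NA MP 1 and NA MP 4 were the highest for 4 each. The summed level of the erythroid genes had the same samples at its ends, with 7192 and 7039 normalised read counts in NA MPs 1 and 4 and 5562 and 5932 in NA MPs 2 and 3. The genes share libraries, so these ranks are a description.

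Levels of different genes were compared as reads per 1000000 reads and per kilobase of mean transcript length. In WT MPs the order was Tfrc at 89.6 ± 2.60, Urod at 50.6 ± 1.53, Alad at 50.5 ± 3.76, Ppox at 40.7 ± 3.30, Cpox at 38.9 ± 1.77, Fech at 17.8 ± 1.24, Uros at 16.7 ± 1.59, Slc25a38 at 15.5 ± 0.846 and Alas2 at 0.415 ± 0.158 (SD, n = 5). Urod and Alad, Ppox and Cpox, and Fech, Uros and Slc25a38 lay within their spread of their neighbours. Alas1 was above all of them at 199.6 ± 7.15. In NA MPs Cpox was at 19.7 ± 2.66, below Ppox at 40.1 ± 2.92 (SD, n = 4), and Tfrc, at 70.4 ± 6.74, remained the highest of the 9. The mean transcript length stands in for the isoforms used, which the values per gene do not show. With the length of all exons joined, the WT MP level of Fech was 5, below Slc25a38 at 10.1 and Uros at 6.93, and Cpox at 18.1 was above Ppox at 16.4.

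**Figure D3:**
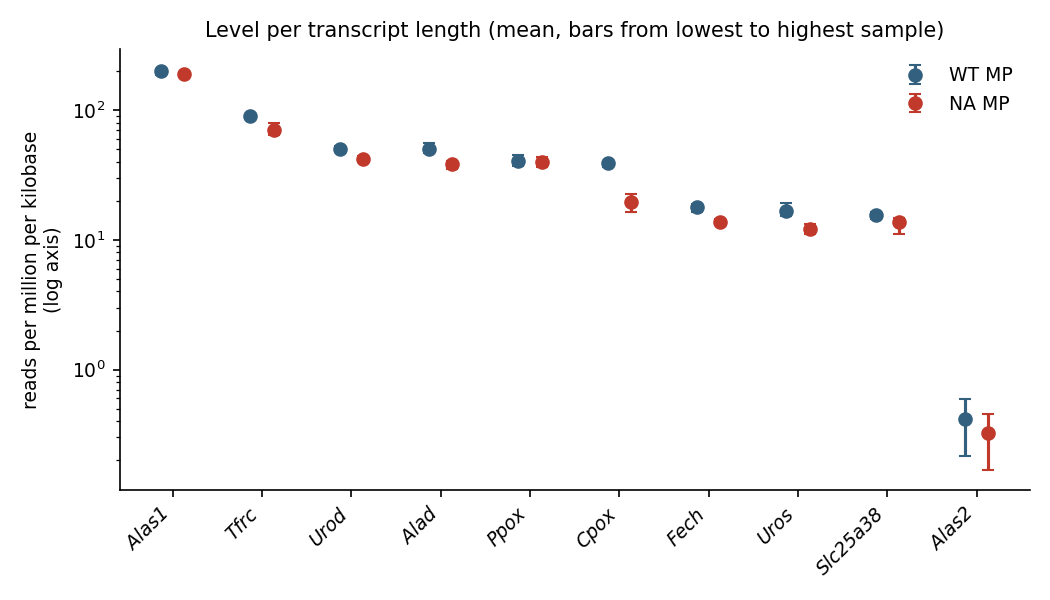
Level per transcript length (reads per 1000000 and per kilobase, log axis) of Alas1 and the 9 genes, ordered by their level in WT MPs; points are means and bars run from the lowest to the highest sample of 5 WT MPs and 4 NA MPs. Alas1 lies at the top at 199.6 and Alas2 at the bottom at 0.415 in WT MPs, and Cpox shows the widest gap between the groups among the tested genes.

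Heme handling, a list of 24 genes that carry, export, break down or sense heme and its precursors, had 11 genes lower and 4 higher of 23 tested. The median log2 fold change was -0.12. The share called was 65.2%, beside 34.3% of all genes tested (17.3% lower and 16.9% higher). Hebp1, a cytosolic heme-binding protein, had 69.6, 40.4, 55.7 and 67.8 normalised read counts in NA MPs and 133, 143, 110.0, 106 and 142 in WT MPs (log2 fold change -1.12, adjusted p = 1.64e-07 from limma). Abcg2, an exporter of porphyrins, was lower in all NA MPs (114 ± 8.11 against 215 ± 12.4, log2 fold change -0.91), as was Blvrb, a biliverdin reductase (264 ± 22.7 against 436 ± 38.5, log2 fold change -0.72, SD, n = 4 and 5). The transporters Abcb10 and Abcb6 and the porphyrinogen carrier Tmem14c also fell, by 0.21, 0.39 and 0.20 on the log2 scale. Slc25a37, the iron importer of mitochondria called mitoferrin 1, had 776 ± 24.5 and 784 ± 40.4 normalised read counts (adjusted p = 0.838 from limma). Pgrmc1, a heme-binding protein that partners Fech, and Bach1, a repressor released from DNA by heme, were higher by 0.25 and 0.27.

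Hmox1, which breaks heme down to biliverdin, iron and carbon monoxide, had the largest change of that list. Its normalised read count was 291, 147, 157 and 150.4 in NA MPs and 34.5, 47.1, 46.9, 46.0 and 41.0 in WT MPs. All NA MPs were above all WT MPs, and NA MP 1 was apart from the other 3. The log2 fold change was 2.03 (SE 0.18, adjusted p = 7.11e-07 from limma), and without NA MP 1 it was 1.80 (adjusted p = 2.69e-16). Macrophages that digest red cells express Hmox1 strongly. Of the 10 macrophage genes, summed at 1901 to 2217 normalised read counts in NA MPs and 1599 to 1711 in WT MPs with none at 0 in all samples, 9 could be tested, 7 rose and Vcam1 fell by 0.25 (adjusted p = 0.00321 from limma). C1qa had 102, 53.6, 89.1 and 57.9 in NA MPs and 12.0 to 16.3 in WT MPs, and C1qb, C1qc, Cd5l, Axl and Cd163 were likewise highest in NA MP 1. Adgre1 and Mertk were highest in NA MP 2 and Vcam1 in NA MP 3 among the NA MPs, and Csf1r did not pass the test (967 ± 64.4 against 919.7 ± 31.2, SD, n = 4 and 5). Their part in the rise of Hmox1 was not tested.

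**Figure D4:**
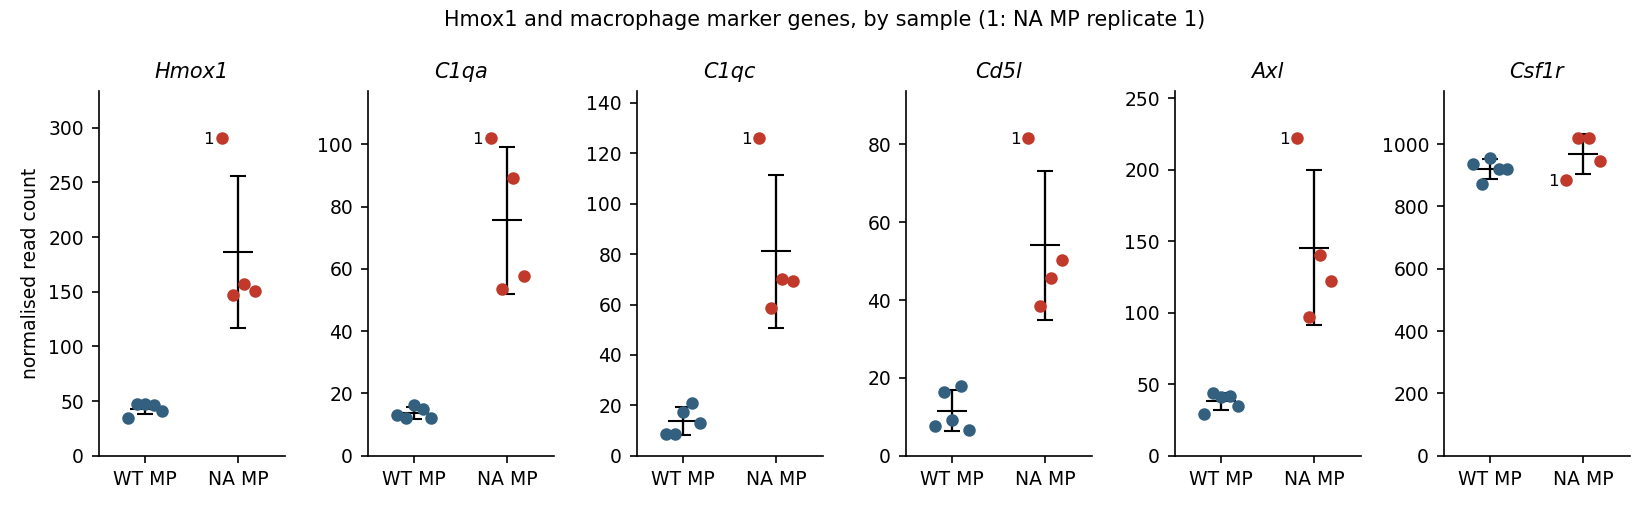
Normalised read count (linear axes from 0) of Hmox1 and 5 of the 10 macrophage genes in 5 WT MP and 4 NA MP samples, with 1 point a sample, the mean as a horizontal mark, bars of 1 SD and NA MP replicate 1 marked 1. NA MP 1 is the highest sample for Hmox1 (291), C1qa, C1qc, Cd5l and Axl and the lowest NA MP for Csf1r.

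Iron handling, 21 genes of uptake, storage, export and sensing, had 6 genes lower and 4 higher of 18 tested, with a median log2 fold change of -0.038. This was 55.6% called, beside 34.3% of all genes tested (17.3% lower and 16.9% higher). Steap3, which reduces the iron released from transferrin, had 367, 359.9, 369 and 369 normalised read counts in NA MPs and 618, 597, 606, 492 and 564 in WT MPs (log2 fold change -0.65, adjusted p = 3.15e-13 from limma). Slc11a2, which carries that iron out of the endosome, fell by 0.40, and Slc39a8, a metal importer, by 0.60. Exoc6 and Snx3, which move Tfrc between endosomes and the cell surface, did not pass, at -0.022 and -0.054 (adjusted p = 0.763 and 0.276 from limma). Trf, transferrin itself, was higher, with 833 ± 64.2 (SD, n = 4) against 492 ± 31.0 (SD, n = 5), a log2 fold change of 0.76 (adjusted p = 7.02e-16 from limma). Tfr2, the second transferrin receptor, was higher by 0.13 (adjusted p = 0.0332), and the metal importer Slc39a14 by 0.36 (adjusted p = 0.0199), a call that was lost without NA MP 1 (adjusted p = 0.0659), NA MP 4 (0.0525), WT MP 2 (0.0607) or WT MP 5 (0.0607).

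Of the genes that hold the printed elements besides Alas2 and Tfrc, Ftl1, the ferritin light chain, was higher at 5115 ± 75.6 against 4307 ± 82.4 (log2 fold change 0.25, adjusted p = 4.52e-11 from limma, SD, n = 4 and 5), and by 0.16 with offsets for GC content and length. Fth1, the heavy chain, had 3661 ± 53.2 and 3648 ± 101 (adjusted p = 0.901), a value near 0 whose sign turned in some settings. Slc40a1, the iron exporter, had 366, 245, 287 and 258 in NA MPs and 347, 349, 346, 318 and 314 in WT MPs, and its log2 fold change of -0.23 did not pass (adjusted p = 0.0738). Without NA MP 1, the only NA MP above the WT MPs, it was -0.35 and passed (adjusted p = 3.07e-05 from limma). Aco1 and Ireb2, which encode the iron regulatory proteins, fell by 0.26 and 0.12 on the log2 scale (adjusted p = 0.000328 and 0.0283 from limma).

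Iron-sulfur clusters are built in mitochondria from the same iron, and Fech itself carries one. Of 14 genes of their assembly, all tested, 5 were lower and none higher, with a median of -0.098. This was 35.7% called, all of them lower, beside 17.3% of all genes tested that were lower and 16.9% higher (34.3% in all). Lyrm4, a subunit of the sulfur donor complex, fell by 0.40 (adjusted p = 0.00521 from limma), Iba57 by 0.34, Glrx5, which passes clusters on, by 0.28, Bola3 by 0.22 and the chaperone Hspa9 by 0.16. The scaffold Iscu had 366 normalised read counts on average in NA MPs and 367 in WT MPs (adjusted p = 0.981).

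The erythroid list had 15 genes lower, none higher and 1 not passing (Mfsd2b, at -0.027) of 16 tested, with a median log2 fold change of -1.10. Among all genes tested, 17.3% were lower. Each of the 15 had all NA MPs below all WT MPs, as did 12.8% of all genes tested. Gata1, the transcription factor of the erythroid lineage, had 384, 269, 291 and 353 normalised read counts in NA MPs and 468, 474, 434, 447 and 439 in WT MPs (log2 fold change -0.49, adjusted p = 0.000302 from limma). Klf1, which reads CACCC boxes, fell by 0.82. The falls were larger for the membrane and cytoskeleton genes Cldn13 (-1.47), Sptb (-1.43), Rhag (-1.39) and Ermap (-1.37). The -0.97 of Cpox lay within the range of the 15 erythroid genes called lower (-1.47 to -0.49). The other 5 genes of heme synthesis and iron uptake that fell had values of -0.24 to -0.44, between these 15 and Mfsd2b at -0.027. These differences between genes were not tested.

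**Figure D5:**
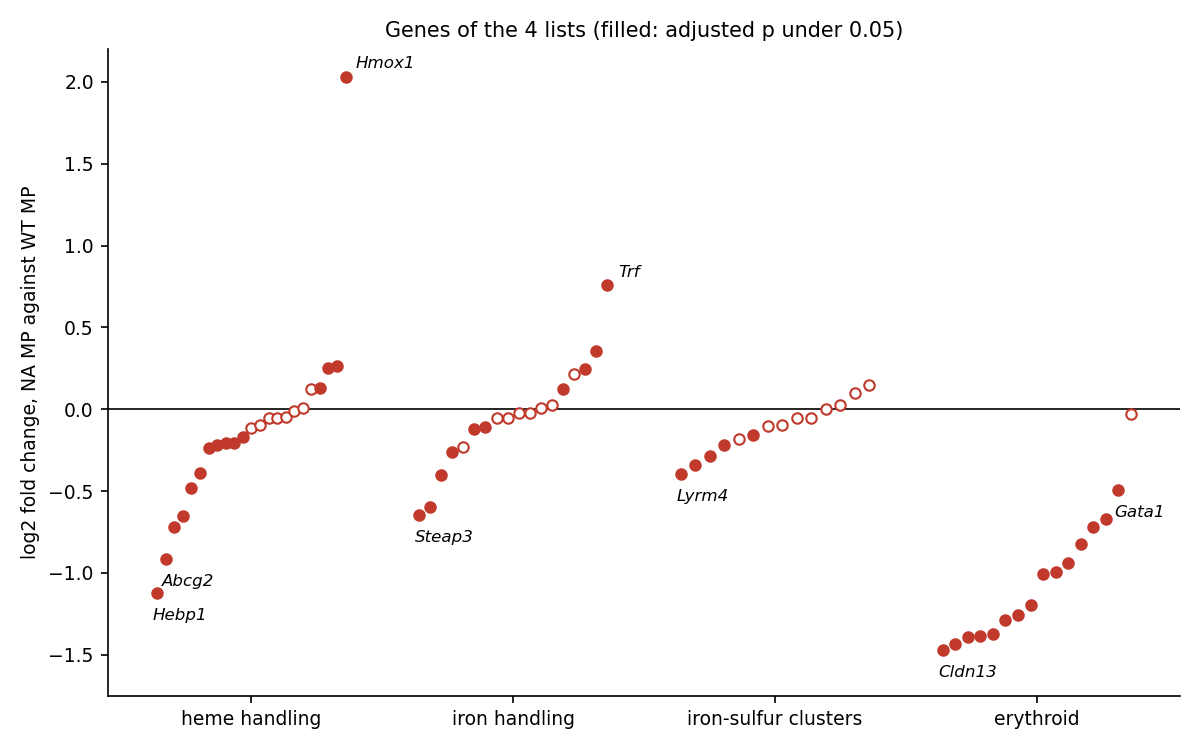
Log2 fold change of NA MPs against WT MPs for every tested gene of the heme handling (23), iron handling (18), iron-sulfur cluster (14) and erythroid (16) lists, sorted within each list; filled points had an adjusted p under 0.05 from limma. Hmox1 at 2.03 is the highest point, and 15 of the 16 erythroid points lie at -0.49 or below.

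The genes most like Tfrc over the 9 samples, by the root mean squared difference of log2 values centred on each gene's mean, were Selenoi (0.041), Alms1 (0.044), mt-Nd2 (0.045), Ranbp2 (0.052) and Vcl (0.053). For Cpox, added after its values were seen, they were Car2 (0.065), Aqp1 (0.075), Sept8 (0.083), Tnfsf13 (0.088) and Hemgn (0.088). Epor, Heatr5a, Abcg2, Samd14 and Fbxo10 followed among the first 10. For Alas2 the closest was Rbpms2 at 0.247, and with 2 to 9 reads a sample its profile is largely counting error. The log2 fold changes of Car2 (-0.94) and Hemgn (-1.01) lay near the -0.97 of Cpox, which follows from picking genes by likeness to its values.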

How the data were processed

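Polyadenylated RNA of 4 NA MP and 5 WT MP samples was sequenced by the authors. The submitters' processing notes name bcl2fastq, RSEM, DESeq2 and mm10; versions, annotation and strand setting are not given in the sources used here. The deposited table is labelled as raw counts, but 97.3% to 97.6% of the values above 0 in a column lay within 0.02 of a whole multiple of 1 step, and the median-ratio factors of the columns were 1.00. The deposited values are therefore treated as a signal: expected read counts of RSEM that were divided by a size factor per sample before deposit. Levels per 1000000 reads and per kilobase were computed on the reads so recovered.

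The count test planned with edgeR and its DESeq2 alternative do not apply to scaled values. A first fit with edgeR, made before the scaling was seen, was dropped and is not used here. limma 3.58.1 in R 4.3.3 (trend and robust options) was fitted to log2(value + 1) for all 11987 genes with at least 10 in at least 4 samples, of 20135 with any value, p-values adjusted by Benjamini-Hochberg and called under 0.05, so the fold changes of low genes are understated. This choice came after the values were seen. Exact two-sided permutation tests, over all ways to part 9 samples into 4 and 5, served for single values and ratios. On simulated data with the same dispersion for every gene, the fit recovered 56% of 1.25-fold changes, 88% of 1.5-fold and 100% of 2-fold. Of its calls, 1.15% were false. Changes smaller than 1.25-fold were not simulated.

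Symbols matched 32916 of the 37980 identifiers. Coordinates are from GENCODE M21 (GRCm38), the build named mm10. Ahsp and amino acid sequences were not analysed here. The genes followed and the lists were chosen with earlier results of these data known. Named genes are the 9, those of the heme, iron, iron-sulfur and erythroid lists past the threshold with an absolute log2 fold change of at least 1 or among the 3 largest each way, a few chosen by name, and the 10 most like Alas2 and Tfrc; a few that meet this rule are left out of the text. Abcb6, Abcb10, Tmem14c, Tfr2, Aco1, Ireb2, Bola3, Hspa9, Iscu, Exoc6, Snx3 and Mfsd2b, the genes like Cpox, the 28 pairs and the promoter window were chosen after values were seen. Replicates of a group differed by more than sampling noise (chi-square per degree of freedom 1.20 to 2.69). Alternatives were median-ratio or library size scaling, other filters, no robust option, a threshold of 0.01, a replicate block, offsets for GC content and length, and leaving out each sample; pseudocounts of 0.5 and 5 and rounding were added after seeing the data.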

Additional observations from a re-analysis of the deposited data

Results flagged for a closer look

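In 78 groups of 4 or 5 samples, for the named genes, 3 samples lay far from the rest of their group by Dixon's test, where chance gives about 3.9. Slc25a38 was low in NA MP 2, at 132 normalised read counts. Tfrc was low in WT MP 1, at 1903, which was still above all NA MPs. Hmox1 was high in NA MP 1, at 291. Of the 10 macrophage genes, C1qa, C1qb, C1qc, Cd5l, Axl and Cd163 were also highest in that sample, Adgre1 and Mertk were highest in NA MP 2, Vcam1 was highest among the NA MPs in NA MP 3, and Csf1r was lowest among the NA MPs in NA MP 1.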

How the results depend on the processing

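Under 21 alternative settings, 903 values were computed. Of 773 fold changes and ratios with a test, 750 kept their direction and side of the threshold, 6 lost their call, 6 gained one and 11 turned sign. All 120 counts of genes called stayed within 1.5 times the reported count, and 10 fold changes of Alas2, which has no test in the reported setting, all kept their sign (-0.47 to -0.086). The calls for Alad, Uros, Urod, Cpox, Fech and Tfrc held in all 20 alternatives, with 6 of the 8 genes called in 19 and 7 with offsets for GC content and length, where Slc25a38 was -0.23 (adjusted p = 0.0243 from limma), and Slc25a38 was -0.065 without NA MP 2 (adjusted p = 0.583). Alas1 passed with those offsets (-0.071, adjusted p = 0.0210) and without WT MP 4 (-0.075, adjusted p = 0.0449), and Ftl1 was 0.16 with the offsets and still passed. Cpox ran from -1.04 to -0.89. The log2 fold change of Ppox turned to 0.0050 with a replicate block, to 0.036 without NA MP 3, to 0.033 without WT MP 1 and to 0.0050 without WT MP 5, and left-out samples moved it between -0.043 and 0.036 (Fth1 between -0.0063 and 0.019, Slc25a37 between -0.039 and 0.010). Slc25a37 turned to 0.010 with the block, 0.014 with GC and length offsets and 0.010 without WT MP 5, and Fth1 to -0.0088 with library size scaling, -0.0063 with the block, -0.00021 without NA MP 4 and -0.0063 without WT MP 5. The cause was not tested.

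Same-numbered samples did not deviate together (correlations of 0.0062, 0.0031, -0.020 and 0.057), and 1 of 4 NA MPs correlated best with its own number. Whether same-numbered samples shared a sort or a preparation was not tested by these correlations. With the replicate block 3693 genes were called in place of 4107, and 2857 at the threshold of 0.01. The block kept 6 of the 8 genes called.

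Alas2 could not be tested at 2 to 9 reads a sample. The planned DESeq2 setting was not run and edgeR is not the reported test, since the values are not counts, and the unrounded setting is the one reported. Depth is inferred from steps between values, and the labels do not say that the samples are separate mice. The strand setting is not given, which bears on Alas2, Cpox, Ppox and Alas1, whose exons overlap genes on the opposite strand. Exons of Trf share 2108 of 3320 bases with Gm20425 on the same strand, and those of Abcb6 share 2932 of 5315 with Gm29253. Exons of Ftl1 share 464 of 1340 with Gm22133 and Gm10252.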
